A study of Homo sapiens with 2 samples.

Results

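The mitochondrial genome encodes 7 subunits of complex I, MT-ND1, MT-ND2, MT-ND3, MT-ND4, MT-ND4L, MT-ND5 and MT-ND6. Their mRNAs were taken by symbol from a table of 13075 genes, in which all 7 had a row and all 7 passed the floor on low values described below. The values come from RNA of HEK293 cells, a human embryonic kidney line, that had been transfected with FLAG-tagged R338W TOP3B, a form of the topoisomerase with 1 amino acid substituted. The RIP (RNA immunoprecipitation) library held RNA recovered from these cells with a monoclonal anti-FLAG antibody. The input library held RNA of the same transfected cells with no antibody step. Both samples are labelled passage 15, and both groups carry the tagged R338W protein. The promoter of the construct, and whether the cells were 1 clone or kept their own TOP3B, is not given in the sources used here. With 1 library in each group, every comparison is between single libraries without replicates, and neither a p-value nor an SD was computed. An anti-FLAG immunoprecipitation from cells lacking the tagged protein was not analysed here.

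Complex I is the first enzyme of the respiratory chain: it passes electrons from NADH to ubiquinone and pumps protons across the inner mitochondrial membrane. All the mitochondrially encoded subunits sit in its membrane arm. MT-ND2, MT-ND4 and MT-ND5 are the large antiporter-like subunits thought to carry protons, MT-ND1 forms much of the ubiquinone-binding site, and MT-ND3, MT-ND4L and MT-ND6 are small subunits near the junction with the peripheral arm. Human mitochondrial DNA is transcribed from both strands as long RNAs that are cut mostly at the tRNAs lying between the genes. MT-ND6 is the only mRNA read with the light strand as its template, and the others are read from the heavy strand. MT-ND4L and MT-ND4 stay together on 1 bicistronic mRNA. TOP3B is a topoisomerase with DNA and RNA as substrates, and the series asked which RNAs are held by it in covalent cleavage complexes.

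The first 45 bases of each annotated transcript show the strand bias of the mitochondrial genome and the start codons. They were read from the GENCODE release 29 transcripts on GRCh38, the assembly that hg38 names. The first codon is in capitals.
MT-ND1: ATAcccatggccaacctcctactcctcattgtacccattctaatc
MT-ND2: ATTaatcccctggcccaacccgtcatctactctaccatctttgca
MT-ND3: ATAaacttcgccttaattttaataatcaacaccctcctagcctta
MT-ND4L: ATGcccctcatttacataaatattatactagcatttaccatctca
MT-ND4: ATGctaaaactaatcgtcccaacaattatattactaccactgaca
MT-ND5: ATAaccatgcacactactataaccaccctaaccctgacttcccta
MT-ND6: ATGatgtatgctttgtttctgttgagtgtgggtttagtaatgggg
These stretches lie at chrM:3307-3351, chrM:4470-4514, chrM:10059-10103, chrM:10470-10514, chrM:10760-10804 and chrM:12337-12381 on the plus strand for the first 6, and at chrM:14629-14673 on the minus strand for MT-ND6. Over whole transcripts, G made up between 9.50% (MT-ND2) and 12.1% (MT-ND4L) of the 6 heavy-strand RNAs and 35.6% of MT-ND6. C made up between 29.5% (MT-ND3) and 36.0% (MT-ND1) of those 6 and 7.05% of MT-ND6. The G and C content together was alike, from 40.2% in MT-ND3 to 47.7% in MT-ND1, with MT-ND6 at 42.7%.

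Each gene is annotated as 1 exon with 1 transcript, and the ends of the transcripts differ in how the stop codon is made. The last 30 bases are given with the bases after the last whole codon in capitals, or with the last codon in capitals where no base is left over.
MT-ND1: tacaatctccagcattccccctcaaaccTA
MT-ND2: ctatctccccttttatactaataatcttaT
MT-ND3: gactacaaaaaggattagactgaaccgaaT
MT-ND4: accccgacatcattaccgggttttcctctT
MT-ND5: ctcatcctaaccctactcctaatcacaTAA
MT-ND6: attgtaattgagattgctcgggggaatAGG
MT-ND1 ends on TA and MT-ND2, MT-ND3 and MT-ND4 end on T, and such ends are known to become TAA when the RNA is polyadenylated. MT-ND5 carries a full TAA, and MT-ND6 ends on AGG, which serves as its stop in human mitochondria. MT-ND1 (chrM:3307-4262, 956 bases), MT-ND2 (chrM:4470-5511, 1042 bases) and MT-ND3 (chrM:10059-10404, 346 bases) are flanked by a tRNA gene on both sides with gaps of at most 2 bases. MT-ND5 (chrM:12337-14148, 1812 bases) abuts MT-ND6 (chrM:14149-14673, 525 bases, minus strand) with 0 bases of overlap, and the nearest tRNA gene past its end, MT-TE, lies 525 bases away.

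The bicistronic unit is shown by the 53 bases at chrM:10737-10789, where MT-ND4L (chrM:10470-10766, 297 bases) ends inside MT-ND4 (chrM:10760-12137, 1378 bases). The 7 bases in capitals belong to both genes: they hold the start codon of MT-ND4 and the stop codon of MT-ND4L in another reading frame.
MT-ND4L/MT-ND4: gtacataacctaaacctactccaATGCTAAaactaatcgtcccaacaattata

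The deposited values were taken as FPKM, which counts fragments by transcript length and library total, since the table names no unit. They summed to 1090243 for the RIP library and 1512049 for the input library over all genes. From the steps between low values, the depth was put at about 24500000 fragments (RIP) and 15100000 fragments (input). The ratio of a gene was log2((RIP + 1)/(input + 1)), and it was read for the 11990 genes that reached 5 FPKM in either library, whose median was 0.13. The transcript of the bait, TOP3B, had 30666 FPKM after immunoprecipitation and 15062 FPKM in input, with transfected and chromosomal copies counted together. Of 6 transcripts known from HEK293 cells, 4 had values (VIM, NEFL, NEFM and INA, from 8.30 to 679 FPKM), and of 5 kidney tubule markers only LRP2 did, at 5.49 FPKM (RIP) and 1.96 FPKM (input). No value was found here for the 3 liver and 4 blood cell markers.

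All 7 complex I mRNAs of the mitochondrial genome were lower in the RIP than in the input, and all 7 were at least 2-fold lower. Over all genes tested, 2.5% were at least 2-fold lower. The summed level of the 7 was 1180 FPKM in the RIP library, against 3172 FPKM in the input library, so the RIP held 37.2% of the input level. The log2 ratios ran from -2.18 for MT-ND6 to -1.06 for MT-ND4L with a median of -1.49, which lay 1.62 below the median gene of these libraries. Both libraries are bulk RNA of the same transfected cells, so the ratio gives no level per cell and no number of cells carrying an RNA.

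Among the antiporter-like subunits, MT-ND5 had 208 FPKM in the RIP library, against 560.5 FPKM in the input library, which gave a log2 ratio of -1.43. MT-ND4 had 168 FPKM in the RIP library, against 474 FPKM in the input library, which gave a log2 ratio of -1.49. MT-ND2 had 88.1 FPKM in the RIP library, against 252 FPKM in the input library, which gave a log2 ratio of -1.50. Their levels differed by more than 2-fold in each library, but the share of the input level found in the RIP was alike, at 37.1% for MT-ND5, 35.5% for MT-ND4 and 35.0% for MT-ND2. MT-ND5 rested on an estimated 8393 RIP fragments and 13956 input fragments, and MT-ND2 on 1893 and 3339.

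MT-ND1, the subunit of the ubiquinone site, had 94.0 FPKM in the RIP library, against 242 FPKM in the input library, which gave a log2 ratio of -1.36. It rested on an estimated 1821 RIP fragments and 2902 input fragments. Its RIP level was 38.8% of the input, between that of MT-ND5 and that of MT-ND4L.

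The small subunits held the highest and the lowest ratio of the set. MT-ND4L had 272 FPKM in the RIP library, against 571 FPKM in the input library, which left 47.7% of the input level and a log2 ratio of -1.06. MT-ND3 had 302 FPKM in the RIP library, against 855 FPKM in the input library, which left 35.3% and a log2 ratio of -1.50. MT-ND6 had 47.2 FPKM in the RIP library, against 217 FPKM in the input library, which left 21.8% and a log2 ratio of -2.18. MT-ND6 thus stood lowest in both libraries, and its gap between them was also the widest as a ratio, though not in FPKM. These are the members with the fewest estimated fragments: MT-ND6 had about 416 RIP and 1186 input fragments, MT-ND4L 880 and 1155, and MT-ND3 1340 and 2363.

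**Figure D1:**
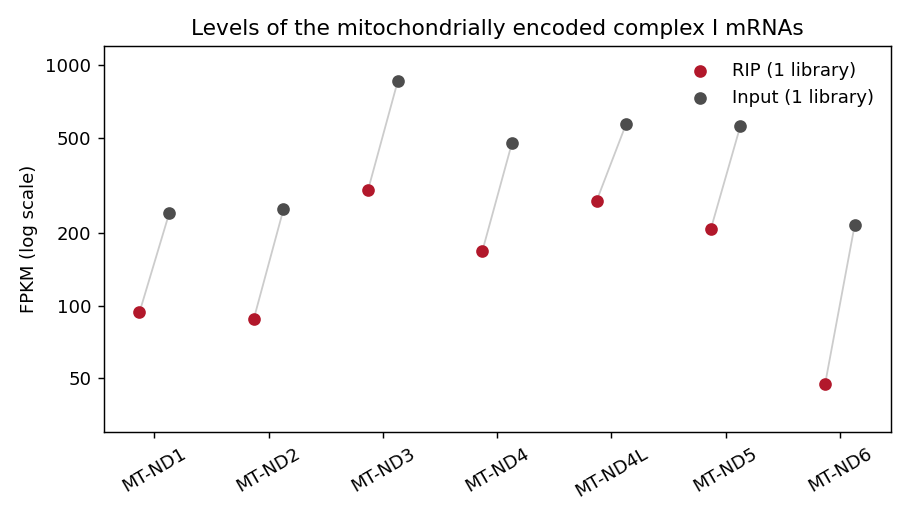
FPKM of each mRNA (y axis, log scale) in the RIP library (left point) and the input library (right point), 1 library each, with a line joining the 2 values of a gene. Every line ends lower on the RIP side, and the line of MT-ND6, between 47.2 and 217 FPKM, is the longest.

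The 5 members MT-ND1, MT-ND2, MT-ND3, MT-ND4 and MT-ND5 lay close together, between -1.50 and -1.36, although their input levels ran from 242 to 855 FPKM and their lengths from 346 to 1812 bases. MT-ND4L stood above this cluster and MT-ND6 below it. The order of levels was the same in both libraries apart from MT-ND1 and MT-ND2, which differed little: MT-ND1 was the higher of the pair in the RIP, and MT-ND2 in the input. From high to low, the RIP order was MT-ND3, MT-ND4L, MT-ND5, MT-ND4, MT-ND1, MT-ND2 and MT-ND6. The highest member was 6.40 times the lowest in the RIP library and 3.94 times in the input library. Of the summed FPKM of the 7, MT-ND6 made up 4.002% (RIP) and 6.84% (input), and MT-ND4L made up 23.1% and 17.99%. The order and these shares depended on the length used. Computed on full annotated length, MT-ND5 stood highest, at 189 (RIP) and 510 (input), against 158 and 452 for MT-ND3. MT-ND4L then stood below MT-ND4 in both libraries.

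The members stood near the low end of the ranking of all genes by ratio. Of the genes tested, 0.626% had a lower ratio than MT-ND6, 0.992% a lower one than MT-ND2, and 2.13% a lower one than MT-ND4L. A share of 2.5% at least 2-fold lower holds for all classes of RNA, and it was smaller for coding genes. Among the 10500 nuclear protein-coding genes tested, 44 were at least 2-fold lower, or 0.419%. Among the 257 of these with at least 200 FPKM in the input, near the input level of the lowest member, the count was 1, or 0.389%. Limited further to annotated lengths within the range of the 7 mRNAs, a setting chosen after seeing the data, it was 1 of 239, or 0.418%. With noncoding RNAs and the mitochondrial mRNAs themselves included, 54 of all 377 genes with at least 200 FPKM in the input, or 14.3%, were at least 2-fold lower.

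The scaling of the libraries moved these ratios. FPKM sums differed between the libraries, and when each was rescaled to the same sum (TPM), a setting added after seeing the data, the median gene moved up by 0.45 on the log2 scale. On that scale all 7 ratios stayed below 0, from -1.71 for MT-ND6 to -0.59 for MT-ND4L, and 4 of the 7 were at least 2-fold lower, against 1.1% of all genes. At a 3-fold limit on the FPKM scale only MT-ND6 was lower, 1 of the 7, against 0.942% of all genes. The distance of the members' median from the median gene was -1.60 on the TPM scale, close to the -1.62 on the FPKM scale.

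**Figure D2:**
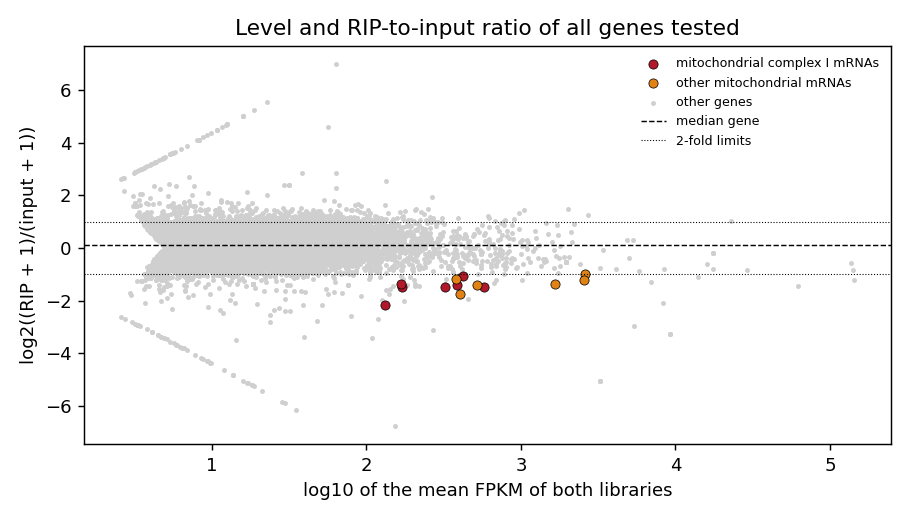
Log2((RIP + 1)/(input + 1)) of the 11990 genes tested (y axis) against the log10 of their mean FPKM (x axis); dotted lines mark the 2-fold limits and the dashed line the median gene at 0.13. The 7 complex I mRNAs lie between -2.18 and -1.06, in the lower part of the genes with the same mean level. By input level instead, 54 of the 377 genes with at least 200 FPKM, the members included, are at least 2-fold lower. Of the 257 nuclear protein-coding genes among them, 1 is.

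MT-ND6, the light-strand member, differed from the 6 heavy-strand members. Its log2 ratio of -2.18 lay 0.72 below their median of -1.46 and 0.67 below MT-ND2, the lowest of them by a narrow margin. In the RIP the level of its neighbour on the other strand, MT-ND5, was 4.40 times that of MT-ND6, and in the input it was 2.58 times. The libraries were made with a stranded kit, but whether the counting used the strand is not given in the sources used here, and without strand RNA of both templates over the gene of MT-ND6 would be counted together. MT-ND6 was the only mRNA of its template, so strand and gene cannot be told apart.

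**Figure D3:**
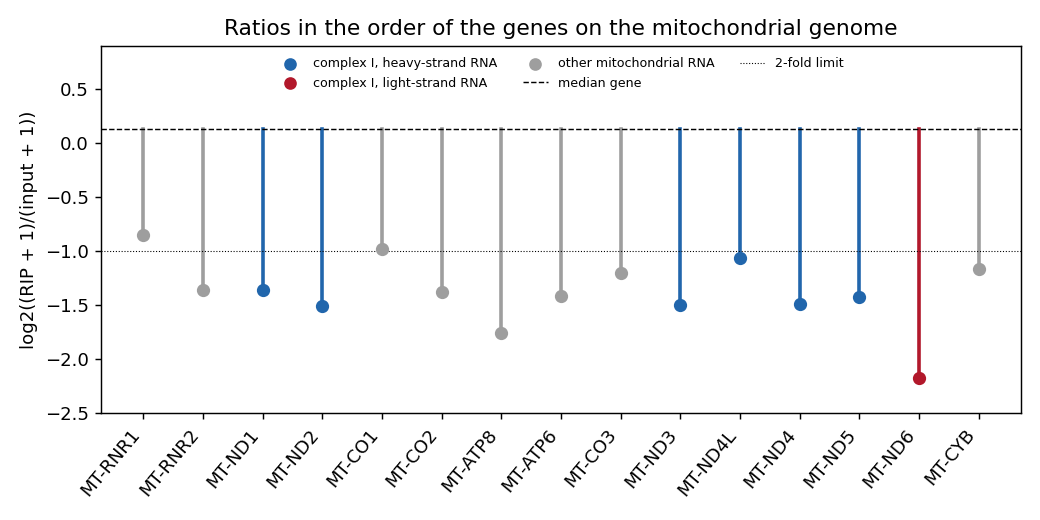
Log2((RIP + 1)/(input + 1)) of 15 mitochondrial RNAs in the order of their genes on the mitochondrial genome (x axis), drawn from the median gene at 0.13; the colours mark heavy-strand complex I mRNAs, MT-ND6 and other mitochondrial RNAs. MT-ND6 at -2.18 is the lowest point and MT-ND4L at -1.06 the highest of complex I.

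The 2 genes of the bicistronic complex I mRNA did not have the same ratio. The log2 ratio of MT-ND4L was 0.42 above that of MT-ND4. The FPKM of MT-ND4L was 1.62 times that of MT-ND4 in the RIP library and 1.203 times in the input library. The other bicistronic unit, MT-ATP8 and MT-ATP6 of the ATP synthase, which share 46 bases, went the other way, with the ratio of the upstream gene MT-ATP8 0.34 below that of MT-ATP6. MT-ATP8 had 183 FPKM in the RIP library and 622 FPKM in the input library, and MT-ATP6 had 281 and 753 FPKM. MT-ND4L and MT-ATP8 are short, so their FPKM divides by an estimated effective length of only 132 and 42 bases in the RIP and 134 and 44 in the input. Computed on full annotated length instead, the level of MT-ND4L was 0.817 times that of MT-ND4 in the RIP library and 0.616 times in the input library, so which gene of the unit stood higher depended on the length used. The difference of their log2 ratios did not turn with the length and was 0.41 on full length.

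The 6 other mitochondrial mRNAs were also lower in the RIP, and the complex I mRNAs overlapped with them. The others ran from -1.76 for MT-ATP8 to -0.98 for MT-CO1 with a median of -1.29, which was 0.20 above that of the complex I mRNAs, and 5 of the 6 were at least 2-fold lower. The 2 mitochondrial rRNAs had log2 ratios of -0.85 (MT-RNR1, 60.9 RIP FPKM and 110.3 input FPKM) and -1.36 (MT-RNR2, 182 and 467 FPKM). Complex I mRNAs made up 19.4% of the summed FPKM of the 13 mitochondrial mRNAs in the RIP and 21.9% in the input. All 13 together made up 0.558% of the FPKM of all genes in the RIP and 0.956% in the input.

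Among heavy-strand mRNAs the ratio ran with the share of G in the transcript. Over the 12 heavy-strand mRNAs, Pearson's r was 0.82 and Spearman's rho 0.86, and over the 6 of complex I they were 0.84 and 0.83. Without MT-ATP8, the shortest, they were 0.72 and 0.82 over 11 genes. Other properties of the same 12 genes had smaller positive values. For the share of G and C together r was 0.61 and rho 0.69, and for the input level they were 0.50 and 0.28. For transcript length they were 0.27 and 0.22. Without MT-ATP8, r and rho in the same order were 0.41 and 0.59, 0.52 and 0.37, and 0.02 and -0.01. Over the 6 of complex I, r and rho were 0.14 and 0.60 for G and C together. They were 0.02 and 0.03 for the input level, and -0.47 and -0.31 for length. Within complex I, MT-ND4L had the highest share of G on the heavy strand, 12.1%, and the highest ratio. MT-ND2 had the lowest share there, 9.50%, and the lowest ratio, but MT-ND3 was nearly tied with it at -1.50. MT-ND3 stood lower than MT-ND2 with pseudocount 5 (-1.49 against -1.46) and on full annotated length (-1.51 against -1.50). MT-ND6 did not follow the order by share of G, with 35.6% of G and the lowest ratio of all 13. With it included, r for the share of G was -0.49 and rho 0.46, of opposite sign. For the share of G and C together, r over all 13 was 0.55 and rho 0.73. The genes share both libraries, their template and their base composition, and they are not independent replicates, so these values describe the genes and were not tested. MT-ND4L and MT-ND4, which share an mRNA, are counted as separate genes. These correlations were not among the planned results, and the shares of A, C and T alone were not set against the ratio.

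**Figure D4:**
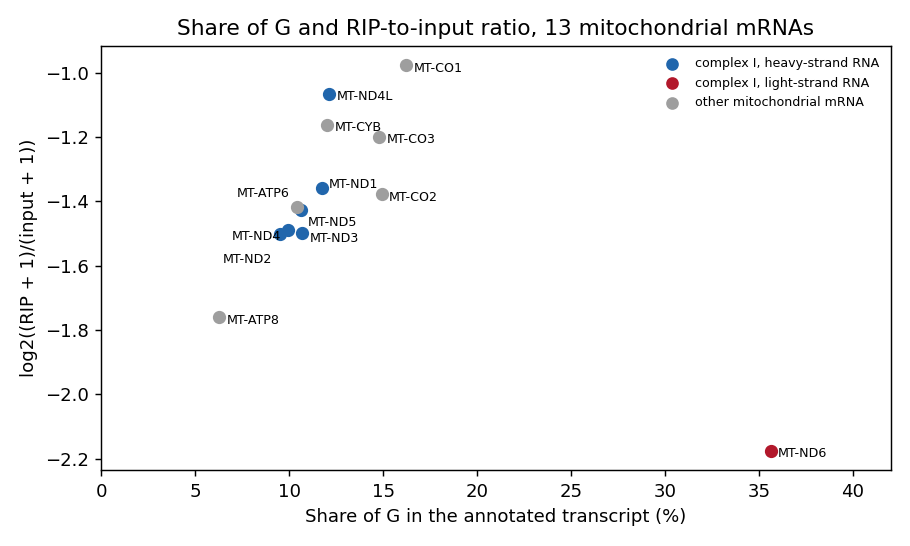
Log2((RIP + 1)/(input + 1)) of 13 mitochondrial mRNAs (y axis) against the share of G in the annotated transcript (x axis, %), with 1 labelled point per gene. The heavy-strand mRNAs rise with the share of G, and MT-ND6 stands apart at 35.6% and -2.18.

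The nuclear-encoded partners of these subunits lay nearer to the median gene. The list held the 7 core subunits of the peripheral arm and 30 accessory subunits, and all 37 were measured. Of these, 1 was at least 2-fold lower and 0 higher, against 2.5% and 4.9% of all genes. Their median of -0.29 on the FPKM scale lay 0.42 below the median gene, and 30 of the 37 lay below that gene. On the TPM scale their median turned to 0.18, where the median gene stood at 0.58. The whole set of 7 mitochondrially encoded members lay below each of the 37 (lowest -1.04) on the FPKM scale. The margin was narrow: MT-ND4L stood at -1.06 and NDUFA5 at -1.04, and the order of these 2 depended on the pseudocount. Of the core subunits, NDUFV1, which binds NADH, had 126 FPKM in the RIP library and 78.8 FPKM in the input library, and NDUFV2, an iron-sulfur subunit beside it, had 50.4 and 83.0 FPKM. NDUFS3, another core subunit, had 82.2 and 101 FPKM. Of the accessory subunits, NDUFA13 had 286 FPKM (RIP) and 169 FPKM (input) and NDUFB10 184 and 132, whereas NDUFA5 had 20.7 and 43.7 and NDUFB1 90.6 and 178.

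Genes that act on complex I assembly or on mitochondrial RNA lay around the median gene. The 16 assembly factors had a median 0.06 below it. Of these, 0 were at least 2-fold lower and 0 higher, against 2.5% and 4.9% of all genes. ACAD9 had 32.4 FPKM (RIP) and 20.3 FPKM (input) and NDUFAF6 28.9 and 18.3, whereas NDUFAF1 had 7.31 and 10.4 and NDUFAF2 32.0 and 44.0. The 29 measured factors of mitochondrial transcription, RNA processing and translation had a median 0.05 above the median gene, with 2 members at least 2-fold higher and 0 lower, against 4.9% and 2.5% of all genes. The 2 were MTRF1, a release factor of mitochondrial translation, at 35.5 FPKM (RIP) and 14.1 FPKM (input), and TBRG4, which acts on mitochondrial mRNA stability, at 67.5 and 32.0 FPKM. At the other end TEFM, the mitochondrial transcription elongation factor, had 14.1 and 24.2 FPKM, and REXO2, an oligoribonuclease, 21.1 and 33.7.

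**Figure D5:**
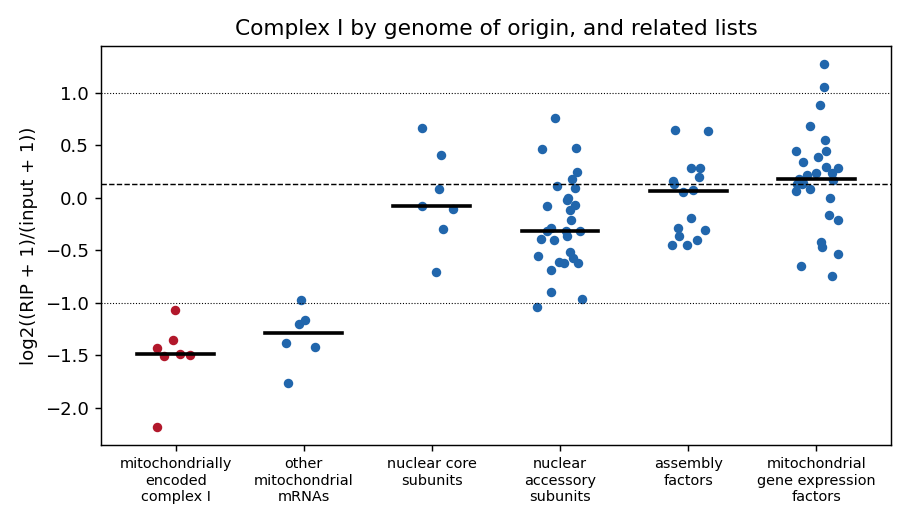
Log2((RIP + 1)/(input + 1)) of single genes (points) with the median of each list (bar); the dashed line is the median gene at 0.13 and dotted lines are the 2-fold limits. The complex I mRNAs of the mitochondrial genome lie between -2.18 and -1.06, below all 37 nuclear-encoded subunits, of which the lowest, NDUFA5, is close at -1.04.

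Outside the mitochondrial genome, the genes with a ratio most like that of the members were noncoding. Among 1011 nuclear genes with at least 100 FPKM in a library, 22 had a ratio at or below the members' median of -1.49, and they were 12 snoRNAs, 5 snRNAs, 4 rows of rRNA and 1 RNA of the miscellaneous class. Of the 857 coding genes among the 1011, 0 did. COX6C, a nuclear-encoded subunit of complex IV, was the only coding gene at or below the highest member, MT-ND4L, with 67.6 FPKM in the RIP library, 144 FPKM in the input library and a log2 ratio of -1.08. The 5 genes nearest to the members' median over the 2 libraries were SNORD94 (-1.46), the antisense gene RP11-386G11.10 (-1.45), SNORA68 (-1.43), SNORA21 (-1.55) and RNY3 (-1.43). With 2 libraries, likeness is a difference between 2 ratios only. FPKM divides by an estimated effective length, which is small for short RNAs, as for MT-ND4L and MT-ATP8. The lengths of the noncoding RNAs named here were not set against the fragment length. Their FPKM and ratios are therefore uncertain, and so is their likeness to the members.

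Nuclear copies of mitochondrial DNA can share fragments with some members. GENCODE annotates 215 nuclear pseudogenes named as copies of complex I genes, and 0 of them had a row among the genes used here. MT-ND2 matched MTND2P28 on chromosome 1 at 98.4% identity over all 1042 bases, MT-ND4 matched MTND4P12 on chromosome 5 at 95.8% over 1376 bases, and MT-ND6 matched MTND6P4 on chromosome 5 at 95.02% over 522 bases. MT-ND1 matched MTND1P23 on chromosome 1 at 99.1%, but over 352 of its 956 bases. The closest copies of MT-ND4L, MT-ND5 and MT-ND3 had 94.9%, 93.0% and 86.4% identity. How fragments shared with a copy were assigned is not given in the sources used here, so the levels of MT-ND1, MT-ND2, MT-ND4 and MT-ND6 are uncertain. These members were taken for a copy at 95% identity or more over at least 100 bases. MT-ND4L, at 94.9% over 297 bases, lay just under that limit, so its level and that of MT-ND5 are not free of this doubt. The part of the copies in the ratios was not tested.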

How the data were processed

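RNA was measured in 2 libraries of transfected HEK293 cells, 1 RIP and 1 input, grouped by their titles. Per the submitters' processing notes, the tools were RSEM 1.2.31, STAR 2.6.1, Trimmomatic 0.3 and cutadapt 1.18, and the build was hg38. Their settings, the annotation and any filter on genes were not given in the sources used here. A single table was deposited by the authors, and its unit was taken as FPKM from its decimals and unequal sums. FPKM divides by the total of the library, so abundant RNAs lower all other values. Depth and mean fragment length (166 bases in the RIP, 164 in the input) were those that best put genes of 250 to 1000 bases with 1 transcript on whole fragments. Of the 106 and 209 genes used, 69.8% and 67.5% lay within 0.15 of a whole number. The fragment numbers are therefore estimates. An approximate 95% counting error from them set when a ratio was counted as moved by another setting, and served nothing else.

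Ratios used a pseudocount of 1 FPKM, which understates differences of low genes, and a floor of 5 FPKM. Annotation and sequences were from GENCODE release 29, matched by Ensembl identifier for 12983 of 13075 genes. Nuclear copies were searched with blastn 2.17.0 among transcripts of pseudogenes named MTND. Calculations used Python 3.11.15, numpy 2.4.6, pandas 2.3.3, scipy 1.17.1 and matplotlib 3.10.9, and were tested on simulated data. The text names the 7 members, the other mitochondrial RNAs, the 2 highest and 2 lowest of each related list, and the 5 genes nearest in ratio. A gene that this rule takes is not reported here. COX6C was named after its value was seen. The members and lists were chosen with earlier results of these data known. Alternatives were other pseudocounts, floors, fold limits, scalings and gene sets.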

Additional observations from a re-analysis of the deposited data

How the results depend on the processing

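No paired analysis was possible because neither the RIP nor the input was replicated. The 7 log2 ratios stayed below 0 under all 6 settings tried on them, between -2.38 and -0.59. Of these 42 values 20 moved by more than an approximate 95% counting error, all under another scaling. At a 3-fold limit 1 of the 7 was lower (0.942% of all genes), and on the TPM scale (added) 4 were. Genes lower in the RIP numbered 300 as reported, 180 with pseudocount 5, 157 with a floor of 20 FPKM, 1222 and 113 at 1.5-fold and 3-fold limits, 56 among coding genes and 54 with at least 200 FPKM in the input. The scalings changed the split. Higher and lower genes were 588 and 300 as reported, 365 and 450 centred on the median gene, 283 and 537 rescaled to nuclear coding genes, and 2608 and 132 as TPM. The median of nuclear-encoded complex I subunits was -0.50 rescaled to nuclear coding genes and 0.18 as TPM, where it changed sign but stayed below the median gene at 0.58. The differences of MT-ND6 from the heavy strand, MT-ND4L from MT-ND4, and complex I from the other mitochondrial mRNAs kept their sign under the settings run. Depth limits MT-ND6 and MT-ND4L most.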
